A study of Homo sapiens with 12 samples.

Results

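The response of human proximal tubular cells to interleukin-1β (IL-1β) was described on 2 microarray slides, titled HK2 02 and RPTEC 01, each of which carries a control array and an IL-1β array. These 4 arrays are part of 12 one-color arrays on 4 slides. They were chosen by their titles and by a measured value: across 15329 probes the slides HK2 02 and RPTEC 01, although named for different lines, were the closest to each other, with r of 0.973 between their control arrays and 0.982 between their IL-1β arrays. Slides named for the same line had r between 0.852 and 0.880. This likeness chose the slides and is given as a description, across probes that are not independent replicates. The source label of every array names HK-2, so the line of a slide rests on its title.

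HK-2 cells come from the proximal tubule of a human kidney and grow without limit through genes of a papillomavirus. In RPTEC/TERT1 cells, which are epithelial cells of the same segment, the catalytic subunit of telomerase has this role. Each is a single cultured line. The study asked which inflammatory responses of such cells are open to inhibition of the sodium-glucose cotransporter SGLT2. Confluent cells were starved of serum and supplements for 24 h. They then stayed without a ligand (control), received IL-1β at 10 ng/mL or received empagliflozin (Empa) at 500 nM, and RNA was taken 24 h later. Each slide holds 1 array of each treatment, so the 2 IL-1β arrays were compared with the 2 control arrays within slides. The study's methods call the arrays of a condition biological replicates, while the labels do not say which cultures they come from, and p-values measure only the spread between these arrays.

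IL-1β binds a receptor made of IL1R1 and its accessory protein IL1RAP, which passes the signal through MYD88 and IRAK kinases to the transcription factor NF-κB and to MAP kinases. NF-κB dimers are held in the cytoplasm by IκB proteins such as the product of NFKBIA and switch on genes of chemokines, cytokines and their own inhibitors once the IκB protein is degraded. The proximal tubule reabsorbs glucose, phosphate, amino acids and filtered proteins and draws much of its energy from fatty acids.

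Levels are given as log2 of the background-subtracted signal relative to the 75th percentile of the array, so a level of 0 is the signal at that percentile and a difference of 1 is a doubling. The 75th percentile lay at 350, 735, 397 and 415 signal units on the HK2 02 control, HK2 02 IL-1β, RPTEC 01 control and RPTEC 01 IL-1β arrays, with 58.1% to 62.4% of probes well above background and 19 to 214 probes saturated. Replicate spots of 1 probe varied most on the HK2 02 control array, with a median SD of 0.17 on the log2 scale, against 0.06 to 0.07 on the other 3. On every slide the control, IL-1β and Empa arrays lie at positions 1, 2 and 3, so position and treatment cannot be told apart.

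The label of a proximal tubule was checked against marker genes. Of 16 proximal tubule markers 9 were well above background on all 4 arrays, among them SLC5A2 (SGLT2), LRP2 (megalin), AQP1 and PAX8, and 5 were on none of them, among which were CUBN, ANPEP, HNF4A and SLC22A6. None of 8 collecting duct markers, such as AQP2, passed that mark on any of the 4 arrays, and 1 of 6 endothelial markers, CDH5, passed it on all of them. Probes of 6 of 7 leukocyte markers, including PTPRC, CD14 and CD68, and of the fibroblast genes DCN and LUM were well above background on all 4 arrays. The summed level of the leukocyte list, on the log2 scale, was 2.81 and 2.15 on the control arrays of HK2 02 and RPTEC 01 and 2.13 and 2.10 on the IL-1β arrays. That of the fibroblast list was 3.33 and 3.29 against 3.59 and 3.25. Its members PDGFRA, PDGFRB, COL3A1 and ACTA2 were well above background on no array. COL1A1 was on 3 arrays, at -4.57 and -4.39 on the control arrays and -3.52 and -3.37 on the IL-1β arrays. The part of such cells in the results was not tested.

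Short stretches of promoters are shown first, because some of the chemokine, cytokine and IκB genes that rose hold the consensus site of NF-κB just before their start. Each line gives 60 bases of the RefSeq promoter in GRCh38.p14, read 5′ to 3′ on the strand of the gene, with a match to the κB consensus in capitals.
CCL20 (chr2:227813738-227813797, plus strand): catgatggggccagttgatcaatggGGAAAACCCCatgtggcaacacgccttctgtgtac
CXCL2 (chr4:74099239-74099298, minus strand): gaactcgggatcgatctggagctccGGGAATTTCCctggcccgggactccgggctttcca
CXCL1 (chr4:73869289-73869348, plus strand): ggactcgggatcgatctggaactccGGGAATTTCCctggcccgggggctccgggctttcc
CXCL5 (chr4:73998734-73998793, minus strand): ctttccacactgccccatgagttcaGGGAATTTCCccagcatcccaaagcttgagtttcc
IL6 (chr7:22727102-22727161, plus strand): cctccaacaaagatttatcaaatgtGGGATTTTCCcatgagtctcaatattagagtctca
NFKBIA (chr14:35404796-35404855, minus strand): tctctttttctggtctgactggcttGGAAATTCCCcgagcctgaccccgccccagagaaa
NFKB1 (chr4:102501285-102501344, plus strand): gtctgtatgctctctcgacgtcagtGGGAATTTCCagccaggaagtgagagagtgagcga
FCAMR (chr1:206970558-206970617, minus strand): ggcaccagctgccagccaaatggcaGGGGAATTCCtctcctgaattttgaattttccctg

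The same letters, GGGAATTTCC, stand in the windows of CXCL1, CXCL2, CXCL5 and NFKB1. The match begins 79 bases before the start of CXCL1 and of CCL20, 78 before that of CXCL2 and 73 before that of IL6. Over windows from 250 bases before to 50 bases after the start, read on both strands, 7 of the 12 genes among the 15 largest rises that have a promoter in the table hold the consensus. Of the CXC chemokines that rose 3 of 4 hold it, and of the feedback inhibitors of NF-κB that rose 2 of 5, so that CXCL8 and ZC3H12A, for example, are without these letters in the window. The share was 16.3% over 313 genes that rose, 12.2% over 467 genes that fell, 12.9% over 11036 genes tested and 10.8% over all 27305 promoters. A match is a description of these letters and not evidence of binding.

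Of 15886 genes, 1093 (6.88%) differed between IL-1β and control at an adjusted p under 0.05 in limma, of which 426 rose (2.68%) and 667 fell (4.2%). At an unadjusted p under 0.05 there were 3522. All 1093 had the same direction on both slides, which were chosen for their likeness, so that this agreement is no sign of stability. The median log2 difference was 1.34 over the genes that rose and -1.28 over those that fell, against -0.10 over all genes tested. With normexp background correction and quantile normalization the balance turned, with 813 genes higher and 746 lower, as it did without the RPTEC 01 control array (230 and 179) and without the RPTEC 01 IL-1β array (101 and 95). Among the genes that rose, 55 were not well above background on either control array, and among those that fell, 72 on neither IL-1β array. Such genes entered the test only through the treatment in which they were high, and their folds are lower bounds for the main processing only. Of 29 of them named here, 7 lost their call with normexp, where their folds were 1.21 to 7.19, and 11 in the authors' table, where they were 1.26 to 8.51. With no test and only the size of the difference, 317 genes (2%) were at least 2-fold higher and 493 (3.1%) at least 2-fold lower on both slides. Across genes the differences of the slides correlated with r = 0.693, over genes that are not independent, and the median distance between them was 0.34 on the log2 scale. The lists below stand beside these shares, 2.68% of all genes higher and 4.2% lower. In lists this small the lack of calls, or of calls in 1 direction, is no result in itself. A pair of limits applies to every count below. When differences between the slide pairs counted as spread, 202 of the 1093 genes stayed past the threshold, and without the RPTEC 01 control, RPTEC 01 IL-1β, HK2 02 control or HK2 02 IL-1β array 409, 196, 194 and 172 genes passed it.

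**Figure D1:**
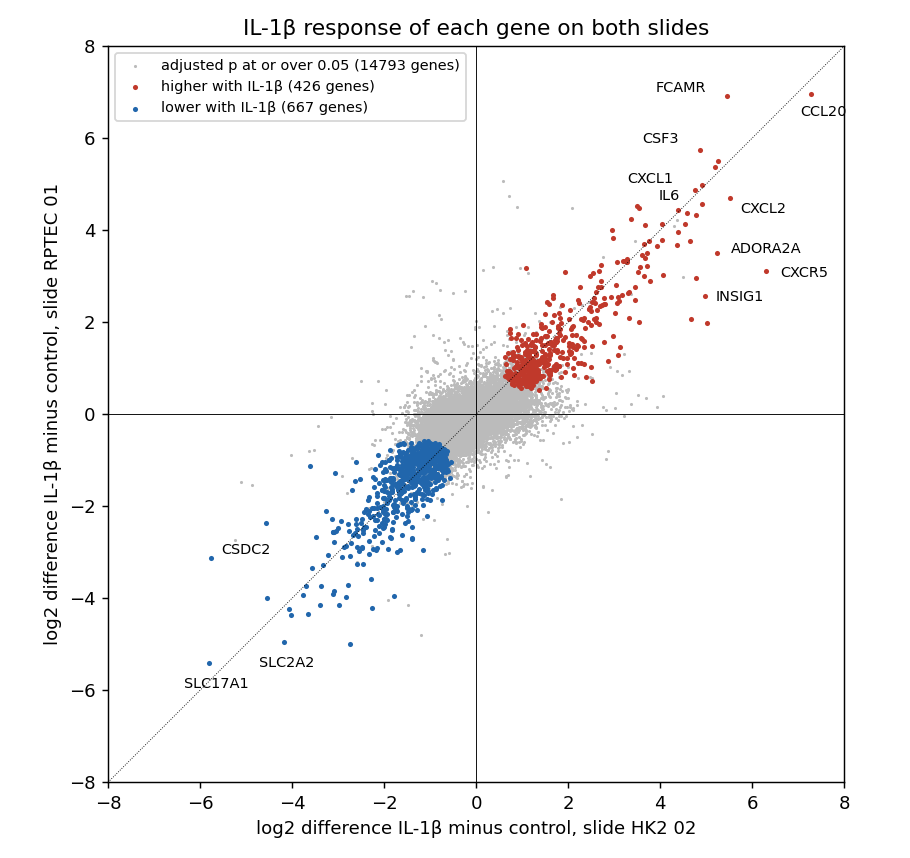
Log2 difference between the IL-1β and the control array on slide HK2 02 (horizontal axis) and on slide RPTEC 01 (vertical axis), 1 point per gene, with the dotted line marking equal differences. Red and blue points are the 426 genes that rose and the 667 that fell, and CCL20 lies at 7.27 and 6.95.

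The largest rise was that of CCL20, the chemokine that attracts cells bearing CCR6, whose probe lies at chr2:228681100-228681836 of hg19 by the array annotation. Its log2 level was -2.81 and -2.36 on the control arrays of HK2 02 and RPTEC 01 and 4.46 and 4.58 on the IL-1β arrays. The difference was 7.27 and 6.95, with a mean of 7.11 ± 0.31 (SE of the fit to all 12 arrays, adjusted p = 0.00011), or 138-fold. CXCL2, CXCL1, CXCL8 and CXCL5, chemokines that draw neutrophils, followed. CXCL2 moved from 0.68 and 1.10 to 6.19 and 5.80, a mean rise of 5.10 ± 0.24 (adjusted p = 0.00011). CXCL1 went from -2.78 and -3.23 to 1.98 and 1.64, a mean rise of 4.82 ± 0.19 (adjusted p = 9.7e-05). For CXCL8 (IL-8) the control levels were 0.91 and 1.45 and the IL-1β levels 5.27 and 5.13, a rise of 4.02 ± 0.25. CXCL5 stood at 0.22 and 0.18 and reached 3.47 and 3.49, a rise of 3.28 ± 0.18. In all 5 genes both IL-1β arrays lay above both control arrays, as the choice of large rises all but fixes. The call of each of the 5 held without each array in turn. With the spread over all 4 slides CXCL1 kept its call (adjusted p = 0.049), and CCL20, CXCL2, CXCL8 and CXCL5 lost it (adjusted p = 0.163, 0.120, 0.309 and 0.0622). The probes of CXCL1 and CXCL2, like those of SAA1 and SAA2 and of the metallothioneins, belong to families of close sequence and may share signal.

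The 6 CXC chemokines tested had a median difference of 3.65, and 4 rose. CXCL16 and CXCL12 differed by -0.16 and -0.30 and did not pass. Another 6 of the 12 with a value, CXCL9, CXCL10 and CXCL11 among them, were not well above background on both arrays of a treatment. Among the 4 CC and CX3C chemokines tested, CCL20 and CCL2 rose. CCL2 (MCP-1), which attracts monocytes, was below the mark of being well above background on both control arrays, with levels of -6.02 and -6.32, and reached -1.38 and -2.55, at least 15.1-fold higher (adjusted p = 0.00035). The rise of CCL2 was 2.53-fold with normexp and 2.95-fold in the authors' table. CCL28 and CX3CL1 differed by 0.40 (adjusted p = 0.544) and 0.08 (adjusted p = 0.924).

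**Figure D2:**
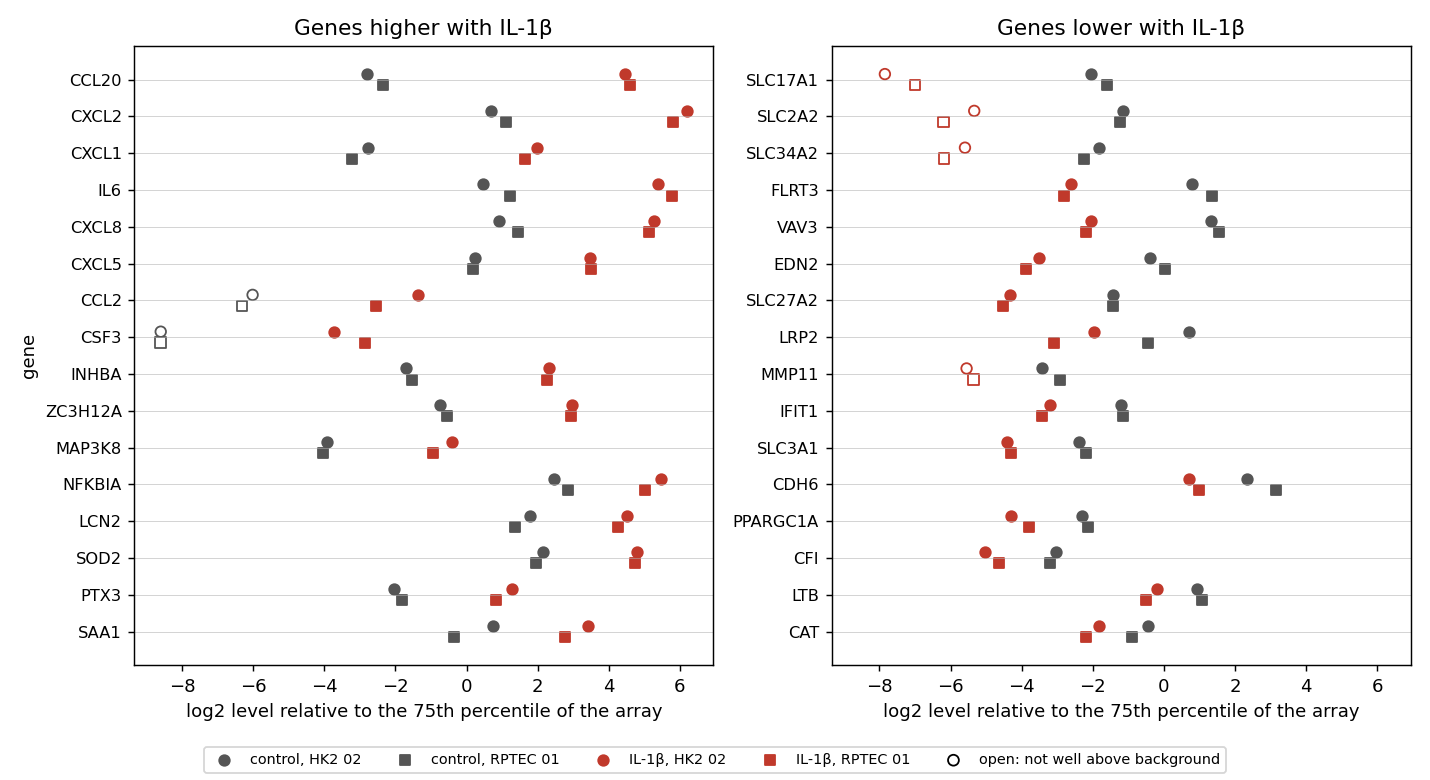
Log2 level relative to the 75th percentile of the array (horizontal axis) on each of the 4 arrays for 16 genes that rose (left) and 16 that fell (right). Gray symbols are control and red symbols IL-1β arrays, circles slide HK2 02 and squares slide RPTEC 01, and open symbols are not well above background. The genes were chosen among those past the threshold on these arrays, so the gap between their control and IL-1β arrays follows from the choice.

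Cytokines and growth factors were the list with the most genes that rose, 8 of 22, with a median difference of 1.07 and no gene that fell. IL6, a driver of the acute phase response, moved from 0.47 and 1.22 to 5.37 and 5.78, a rise of 4.73 ± 0.26 (adjusted p = 0.000178). Another probe of IL6 rose by a mean of 2.99. CSF3, the granulocyte growth factor G-CSF, was at the floor on both control arrays and at -3.73 and -2.86 with IL-1β, at least 6.01-fold higher, against a log2 difference of 0.82 with normexp and of 0.91 in the authors' table, where it did not pass (adjusted p = 0.266). INHBA, which encodes the activin A subunit, rose from -1.71 and -1.53 to 2.32 and 2.26. IL11 rose by 3.37 ± 0.18, from -2.00 and -1.81 to 1.55 and 1.38. HBEGF, a ligand of the EGF receptor, rose by 2.45, EDN1 (endothelin-1) by 1.38 ± 0.24, EBI3 by 1.15, and IL12A by at least 2.23-fold. With normexp and in the authors' table IL12A was 1.21-fold and 1.27-fold higher and did not pass (adjusted p = 0.167 and 0.0829). CSF2 (GM-CSF) had levels of 0.36 and 0.45 on the control arrays and 4.72 and 4.66 on the IL-1β arrays, but its SE of 1.33, taken over all slides, left it at an adjusted p of 0.109. LIF differed by 0.98 (adjusted p = 0.065) and VEGFA by 0.68 (adjusted p = 0.0794). With the spread over all 4 slides, IL11 and EDN1 of the 8 kept their call. That of EDN1 was lost without each array in turn (adjusted p of 0.0712 to 0.181), with normexp (0.60, adjusted p = 0.0593) and in the authors' table (0.67, adjusted p = 0.0624).

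In the receptor pathway 3 of 22 genes rose and 1 fell, with a median difference of 0.30. MAP3K8, the kinase TPL2 that links NF-κB1 to the ERK cascade, rose from -3.92 and -4.05 to -0.41 and -0.95 (3.30 ± 0.22, adjusted p = 0.000426), and IRAK2 rose by 1.96 ± 0.24. The accessory receptor chain IL1RAP rose by 1.30 ± 0.19, while IL1R1 differed by 1.09 ± 0.27 (adjusted p = 0.0595). SIGIRR, a receptor that dampens the pathway, fell by 0.80, a call that was lost after correction for GC content. MYD88 and IRAK1 differed by -0.34 and -0.02. Of 3 ligands of the IL-1 family tested, IL37 rose by 1.05, IL18 differed by -1.28 (adjusted p = 0.0948) and IL33 by -0.14, which turned positive under quantile normalization. IL1A and IL1B were not well above background on both arrays of either treatment.

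Of the 5 NF-κB subunits NFKB1 alone passed, with levels of 0.25 and 0.52 on the control arrays and 1.54 and 1.44 with IL-1β, a rise of 1.11 ± 0.18 (adjusted p = 0.012). The call of NFKB1 was lost without each of the 4 arrays in turn. RELB went from 2.49 and 2.83 to 2.94 and 2.73, so that its arrays overlapped. REL, RELA and NFKB2 differed by 0.63, -0.02 and -0.04, the last of these with -0.36 on HK2 02 and 0.27 on RPTEC 01, and RELA and NFKB2 turned positive under quantile normalization, normexp and the authors' table.

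Feedback inhibitors of NF-κB rose in 5 of 16 genes tested, with a median difference of 0.57 and no gene that fell. ZC3H12A (regnase-1), an RNase that degrades cytokine mRNAs, rose from -0.75 and -0.54 to 2.96 and 2.95 (3.60 ± 0.17, adjusted p = 0.00011). NFKBIA went from 2.46 and 2.84 to 5.47 and 5.03 (2.60 ± 0.25, adjusted p = 0.00157). NFKBIZ rose by 1.83 ± 0.21, TRAF1 by 1.69 ± 0.25 and TNIP1 by 1.36 ± 0.20. BCL3, NFKBIE, NFKBIB, CYLD and TNIP2 lay between -0.32 and 0.57 and did not pass. ZC3H12A and TNIP1 kept their call with the spread over all 4 slides, and ZC3H12A and NFKBIA kept it without each array in turn.

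The host transcript of microRNA-146a, which lowers IRAK1 and TRAF6 in a further feedback loop, was named after its values were seen. The probe of MIR146A reads the longer transcript and not the mature microRNA. Its level was -3.68 and -3.76 on the control arrays and 0.24 and -0.12 on the IL-1β arrays, a rise of 3.78 ± 0.25 (adjusted p = 0.000421), and the call held with the spread over all 4 slides (adjusted p = 0.0113). The mature strand is shown from RefSeq, GRCh38.p14, chr5:160485372-160485393, plus strand, with its seed, bases 2 to 8, in capitals.
hsa-miR-146a-5p: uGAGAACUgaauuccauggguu

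Acute phase and antimicrobial genes rose in 6 of 14 tested and fell in 1, with a median of 0.81. LCN2 (NGAL), an iron-siderophore binding protein and marker of tubular injury, went from 1.79 and 1.35 to 4.51 and 4.25 (2.81 ± 0.21, adjusted p = 0.000579). SAA1 went from 0.74 and -0.35 to 3.41 and 2.76 (2.89 ± 0.21), and PTX3, a pattern recognition molecule, from -2.04 and -1.83 to 1.28 and 0.83 (2.99 ± 0.22). SAA2 and SAA4 were not well above background on the control arrays and were at least 13.4-fold and 7.56-fold higher. With normexp their rises were 2.69-fold and 2.24-fold. In the authors' table they were 3.21-fold and 2.54-fold, and neither passed (adjusted p = 0.0504 and 0.0618). The antimicrobial peptide gene DEFB4A rose by 2.77 ± 0.43, while DEFB1, which tubules express constantly, fell by 2.05 on the log2 scale, from 1.83 and 2.27 to 0.43 and -0.42. None of these 7 kept its call with the spread over all 4 slides.

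Complement showed both directions among 14 genes. The membrane inhibitor CD59 rose by 1.60 ± 0.21, whereas CFI, the protease that inactivates C3b, went from -3.02 and -3.20 to -5.04 and -4.64 and C5 from -1.01 and -0.70 to -1.98 and -1.96. C3 differed by 1.05 ± 0.55 (adjusted p = 0.31). The median of the list was 0.08. None of the 9 adhesion genes passed: ICAM1 had levels of 1.41 and 1.29 against 1.95 and 2.04 (0.65 ± 0.19, adjusted p = 0.0955), and VCAM1 of -1.20 and -0.88 against -0.55 and -0.91, which overlap. Within the TNF superfamily and survival list 5 of 17 genes rose and 2 fell, with a median of 0.45. TNF rose by 1.65 ± 0.20 from control levels of -4.83 and -4.76, CD40 by 1.59 ± 0.27, BIRC3 by 1.36 ± 0.22, FAS by 0.91 and TNFSF9 by 0.77, while LTB (lymphotoxin β) went from 0.92 and 1.08 to -0.21 and -0.50 and TNFRSF21 fell by 0.82. In the authors' table the rise of TNF was 0.69 and did not pass (adjusted p = 0.352). None of these 7 calls was kept with the spread over all 4 slides.

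In prostaglandin metabolism 3 of 12 genes rose and 2 fell, with a median of 0.34. PTGER4, the EP4 receptor of prostaglandin E2, rose from -4.23 and -4.03 to -1.55 and -1.69 (2.51 ± 0.18, adjusted p = 0.000458). SLCO2A1, which takes up prostaglandins, rose by 2.00 ± 0.18, and PTGES, the inducible prostaglandin E synthase, was at least 4.10-fold higher. PTGDS and PTGIS, synthases of prostaglandin D2 and prostacyclin, fell by 1.11 and 1.30. PTGS1 differed by 1.74 ± 0.76 (adjusted p = 0.234), and PTGS2 was not well above background on both arrays of either treatment. Among 10 matrix metalloproteinases and their inhibitors MMP11 was at least 4.82-fold lower, MMP1 differed by 1.69 (adjusted p = 0.0621), and the list's median was -0.34.

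**Figure D3:**
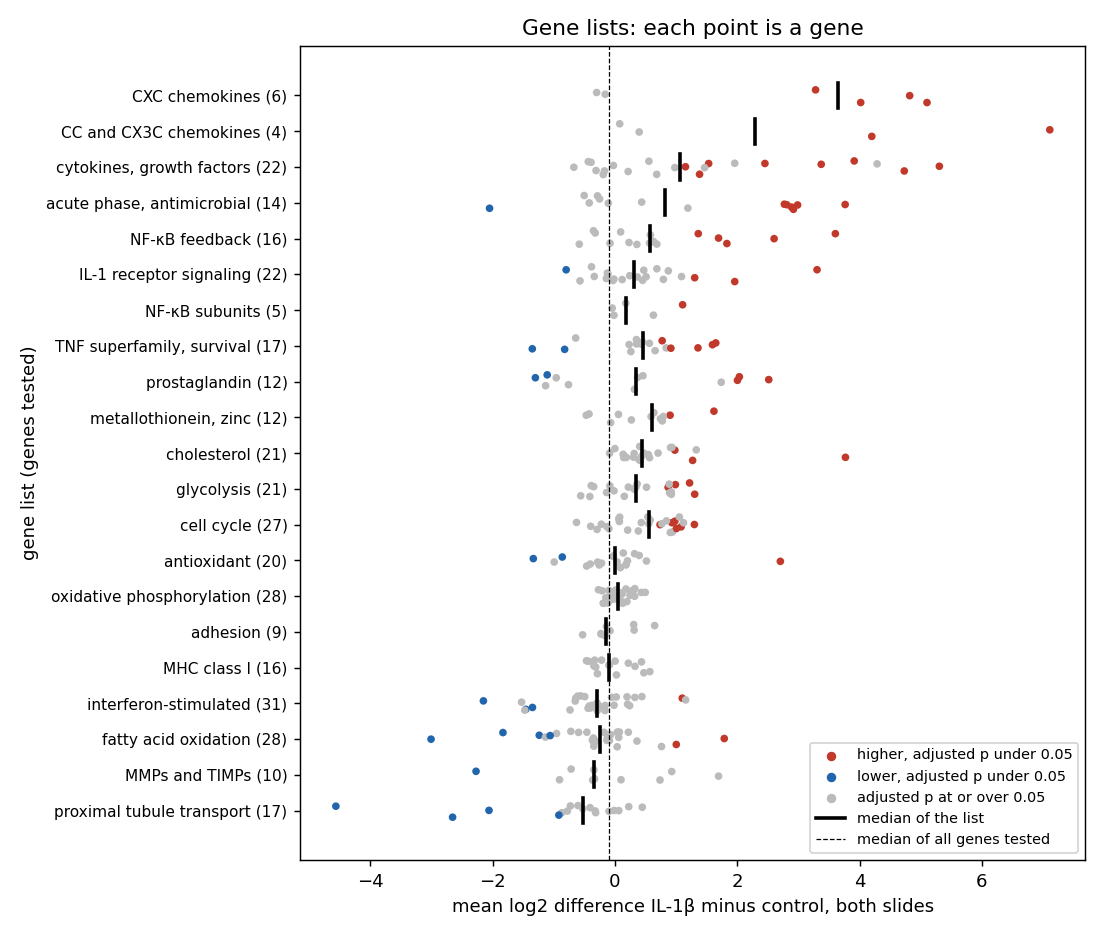
Mean log2 difference between IL-1β and control over both slides (horizontal axis) for the genes tested in 21 lists, with their number in brackets. Red and blue points passed an adjusted p of 0.05, the short black bars are medians of the lists, and the dashed line is the median of all genes, -0.10. The chemokine lists, with medians of 3.65 and 2.30, lie farthest to the right and proximal tubule transport, at -0.52, farthest to the left.

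Of 31 interferon-stimulated genes tested, 3 fell and 1 rose, with a median of -0.30. On both slides 19 of them (61.3%) were lower, against 42.3% of all genes tested. IFIT1 went from -1.20 and -1.15 to -3.21 and -3.44 (-2.15 ± 0.28, adjusted p = 0.00595) and IFIT2 from -0.21 and -0.25 to -1.55 and -1.81 (-1.46 ± 0.17). IFIT3 and IFI44L differed by -1.53 (adjusted p = 0.16) and -1.47 (adjusted p = 0.0617). GBP1 rose by 1.10 ± 0.22. IFIT1 and IFIT2 kept their call with the spread over all 4 slides. None of 16 MHC class I and antigen processing genes passed, and their median of -0.09 was close to that of all genes.

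Among antioxidant genes 1 of 20 rose and 2 fell. SOD2, the mitochondrial superoxide dismutase, went from 2.16 and 1.96 to 4.80 and 4.73 (2.70 ± 0.19, adjusted p = 0.00048), catalase (CAT) from -0.45 and -0.90 to -1.82 and -2.20 (-1.33 ± 0.21), and HMOX1 from 1.65 and 1.96 to 0.93 and 0.96 (-0.86 ± 0.17). NFE2L2 and its target NQO1 differed by 0.40 and 0.04. Of 12 metallothionein and zinc genes the zinc importer SLC39A14 rose by 1.62 ± 0.17 and MT1M by 0.90, with a median of 0.61, and the call of MT1M was lost after GC correction. MT1X was saturated on 1 array and differed by 0.79 (adjusted p = 0.0679). In arginine, nitric oxide and tryptophan metabolism 3 of 14 rose, with a median of 0.26: KYNU (kynureninase) was at least 5.66-fold higher, against a log2 difference of 0.56 with normexp and of 0.61 in the authors' table, where it did not pass (adjusted p = 0.333), SAT1, which breaks down polyamines, rose by 1.36 and IL4I1 by 1.34.

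Early response transcription factors and feedback genes of ERK showed a mixed picture, with 4 of 25 higher, 2 lower and a median of 0.12. FOSB rose by 1.80 ± 0.27, the phosphatase gene DUSP5 by 1.36, IER3 by 1.09 and CEBPB by 0.86. EGR1 went from -0.40 and 0.17 to -1.69 and -1.92 (-1.69 ± 0.23), and FOS was at least 3.42-fold lower, a call that was lost after GC correction. With normexp and in the authors' table FOS was 1.23-fold and 1.26-fold lower and did not pass (adjusted p = 0.297 and 0.206). Genes of the unfolded protein response and amino acid synthesis had 1 call of 18 (5.56%, against 6.88% of all genes), DNAJC3 at 0.73, which was lost after GC correction, and a median of 0.16.

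Of 17 transport genes of the proximal tubule 4 fell and none rose, against 4.2% and 2.68% of all genes tested. Their median was -0.52, and 15 of the 32 on the array were not well above background on both arrays of a treatment. SLC2A2 (GLUT2), the basolateral glucose transporter, had levels of -1.16 and -1.24 on the control arrays and was not well above background with IL-1β, at -5.33 and -6.19, at least 21.1-fold lower (adjusted p = 0.00011). LRP2, the endocytic receptor for filtered proteins, went from 0.70 and -0.44 to -1.97 and -3.08 (-2.65 ± 0.18, adjusted p = 0.000426), and its call held with the spread over all 4 slides, whereas those of SLC2A2, SLC3A1 and ABCC4 were lost (adjusted p = 0.0947, 0.375 and 0.0993). SLC3A1, a subunit of the cystine transporter, went from -2.38 and -2.20 to -4.41 and -4.29 (-2.06 ± 0.24), and ABCC4 fell by 0.92. SLC2A2 was 3.29-fold lower with normexp and 3.86-fold lower in the authors' table. SLC5A2, the target of Empa, differed by -0.87 ± 0.25 (adjusted p = 0.0921). Of 6 tubule transcription factors NR1H4, the bile acid receptor FXR, rose by 1.84 ± 0.25 and MAF differed by -0.75.

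Another transporter that fell was SLC17A1. This sodium-phosphate and urate transporter of the apical membrane, with a probe at chr6:25799126-25801155 of hg19, had levels of -2.05 and -1.59 on the control arrays and -7.85 and -6.99, not well above background, on the IL-1β arrays, at least 21.0-fold lower (adjusted p = 0.000158). SLC34A2, a sodium-phosphate cotransporter, was at least 12.9-fold lower. With normexp and in the authors' table SLC17A1 was 2.55-fold and 2.97-fold lower and SLC34A2 2.26-fold and 2.62-fold. On the Empa arrays of HK2 02 and RPTEC 01 SLC17A1 differed from control by -2.32 and -2.72 and SLC2A2 by -1.71 and -2.17. Those arrays share the control arrays with the IL-1β comparison. FLRT3, a cell surface protein, went from 0.78 and 1.36 to -2.61 and -2.80 (-3.77 ± 0.25), and VAV3, an activator of small GTPases, from 1.32 and 1.54 to -2.06 and -2.19 (-3.56 ± 0.20). EDN2 (endothelin-2) went from -0.40 and 0.03 to -3.51 and -3.88, a fall that opposes the rise of EDN1, though its call was lost without each array in turn. CSDC2, CFAP221, MARVELD3, SUGT1P3, ARHGAP24, PP12708, ANKRD2 and S100A14 complete the group with IL-1β arrays below that mark, by at least 11.2, 3.71, 6.15, 3.42, 8.17, 7.50, 13.2 and 5.09-fold. With normexp CFAP221, SUGT1P3, ANKRD2 and S100A14 differed by -0.42, -0.42, -1.15 and -0.37 and did not pass (adjusted p = 0.0852, 0.0810, 0.0681 and 0.151), and S100A14 and ARHGAP24 did not pass in the authors' table (-0.48, adjusted p = 0.192, and -0.86, adjusted p = 0.0680). LOC100131626 differed by -3.47 ± 0.29, with 1 of its 2 IL-1β arrays well above background.

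The other large rises were in genes of varied roles. FCAMR, the Fc receptor of IgA and IgM, was at -5.31 and -6.63 on the control arrays, not well above background, and at 0.15 and 0.28 with IL-1β. On this probe it was at least 61.1-fold higher, while another probe of FCAMR rose by a mean of only 2.48 on the log2 scale. SCG5, a chaperone of a prohormone convertase, was measured on all arrays, at -3.66 and -3.92 against 0.74 and 0.52 (4.41 ± 0.24). ITGA1, the integrin α1 chain that binds collagen, was at least 19.4-fold higher, IGFBP5 6.33-fold, ADORA2A, an adenosine receptor, 5.93-fold, CXCR5 9.36-fold, LINC00602 5.92-fold, LAPTM5 4.66-fold, GDF6 3.56-fold and LRTM1 3.07-fold, each as a lower bound because the control arrays were not well above background. These bounds hold for the main processing only. FCAMR was 7.19-fold higher with normexp and 8.51-fold in the authors' table, and ITGA1 3.44-fold and 4.12-fold. CXCR5 was 2.12-fold and 2.35-fold higher there, IGFBP5 1.79-fold and 1.98-fold, and LAPTM5 1.51-fold and 1.65-fold. GDF6 was 1.42-fold and 1.43-fold higher and passed in neither (adjusted p = 0.0642 and 0.0513). ADORA2A and LRTM1 did not pass in the authors' table (adjusted p = 0.0733 and 0.0508). CXCR5 differed by 6.30 on HK2 02 and 3.11 on RPTEC 01, with controls at and near the floor. Of the 30 largest changes, 20 kept their call without each array in turn and 13 with the spread over all 4 slides, among them FCAMR, ITGA1, SCG5, SLC17A1, SLC34A2, FLRT3, VAV3 and EDN2. CXCR5, GDF6 and LRTM1 among the rises and CSDC2, CFAP221, MARVELD3, SUGT1P3, PP12708, ANKRD2 and EDN2 among the falls lost it in at least 1 setting without an array.

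Fatty acid oxidation had 4 genes lower and 2 higher of 28, with a median of -0.24. SLC27A2, which takes up and activates long-chain fatty acids, went from -1.43 and -1.42 to -4.34 and -4.52 (-3.01 ± 0.20, adjusted p = 0.000426). PPARGC1A (PGC-1α), the coactivator of mitochondrial genes, went from -2.31 and -2.15 to -4.31 and -3.81 (-1.83 ± 0.23). ACADS fell by 1.24 and PDK4 by 1.06, whereas the acyl-CoA synthetase ACSL4 rose by 1.79 ± 0.21 and ACSL5 by 1.00. SLC27A2, PPARGC1A and ACSL4 kept their call with the spread over all 4 slides. None of the 28 genes of oxidative phosphorylation passed, and their mean differences lay between -0.27 and 0.50.

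Glycolysis and cholesterol synthesis had a few genes that rose and none that fell, against 2.68% and 4.2% of all genes tested. In glycolysis 4 of 21 genes rose, with a median of 0.34: PFKFB4 by 1.30 ± 0.23, hexokinase 2 (HK2) by 1.22 ± 0.26, PFKFB3 by 0.99 and SLC2A1 (GLUT1) by 0.87, the last of which was lost after GC correction. In the cholesterol list 3 of 21 rose, with a median of 0.44. INSIG1, which retains the sterol sensor SCAP in the endoplasmic reticulum, rose unevenly, from -1.64 to 3.33 on HK2 02 and from 0.22 to 2.79 on RPTEC 01 (3.77 ± 0.48, adjusted p = 0.00528), and without the HK2 02 IL-1β array it had an adjusted p of 0.065. ABCA1, the cholesterol exporter, rose by 1.27 and HMGCS1 by 0.98.

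Cell cycle genes were higher in 6 of 27, with a median of 0.55 and no gene that fell. CDK1 went from 1.41 and 1.25 to 2.90 and 2.37 (1.30 ± 0.18, adjusted p = 0.00747), MKI67 rose by 1.08, BUB1 by 1.01, AURKB by 0.98, TOP2A by 0.93 and CCNB1 by 0.74. The Empa arrays of the same slides, which share the control arrays, differed from control by 1.54 and 1.47 for CDK1 and by 1.34 and 1.19 for MKI67. The matrix and TGF-β list had 2 of 21 higher and 2 lower, with a median of 0.41. TGFBR1 rose by 1.40, and TGFB1 and TGFBR2 fell by 0.94 and 0.87. Of 14 injury and repair genes LCN2 rose and CDH6 and ANXA1 fell, by 1.89 and 0.84, while HAVCR1 (KIM-1) and CLU differed by -1.13 (adjusted p = 0.351) and -1.26 (adjusted p = 0.355), and the median was -0.17.

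The list of genes from the inflammatory cluster that the study picked on these arrays holds 11 genes here and is not the whole cluster. Of the 10 tested 6 rose, namely CCL2, ZC3H12A, LCN2, NR1H4, EDN1 and CEBPB, with a median of 1.12. Since they were picked for a rise on the same arrays, their count is not independent evidence of a direction. SRC, ASS1 and RELA of this list differed by 0.13, 0.25 and -0.02. Apart from the arrays, the study measured CCL2 and EDN1 mRNA by PCR in both lines and reported a rise with IL-1β. By ELISA it also reported a rise of the CCL2 protein in both lines and of endothelin-1 in RPTEC/TERT1 cells.

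A trend with base composition ran through slide HK2 02. Grouped by the GC content of the probe, the median difference between IL-1β and control there went from 0.37 in 316 genes under 35% GC to -0.52 in 2571 genes at 55% and over, with a Spearman rank correlation of -0.432 across genes. On RPTEC 01 these medians lay between -0.01 and -0.09 (rank correlation -0.065). The Empa array of HK2 02 differed from the same control array with a rank correlation of -0.436, and the IL-1β and Empa arrays of that slide, compared with each other, gave -0.132. Between the control arrays of HK2 02 and RPTEC 01 it was 0.379. The share of genes that rose went from 5.70% under 35% GC to 0.778% at 55% and over, and the share that fell lay between 3.16% and 5.61%. When the trend was taken off within each slide, 443 genes rose and 785 fell, and 1008 of the 1093 genes stayed past the threshold. The corrected calls were still uneven over GC content. Under 35% GC 14 of 316 genes rose and 25 fell, and at 55% and over 37 of 2571 rose and 72 fell. The medians of the chemokine lists were then 3.36 and 2.27 and that of proximal tubule transport -0.36. Of the 96 named genes past the threshold 93 kept their call.

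**Figure D4:**
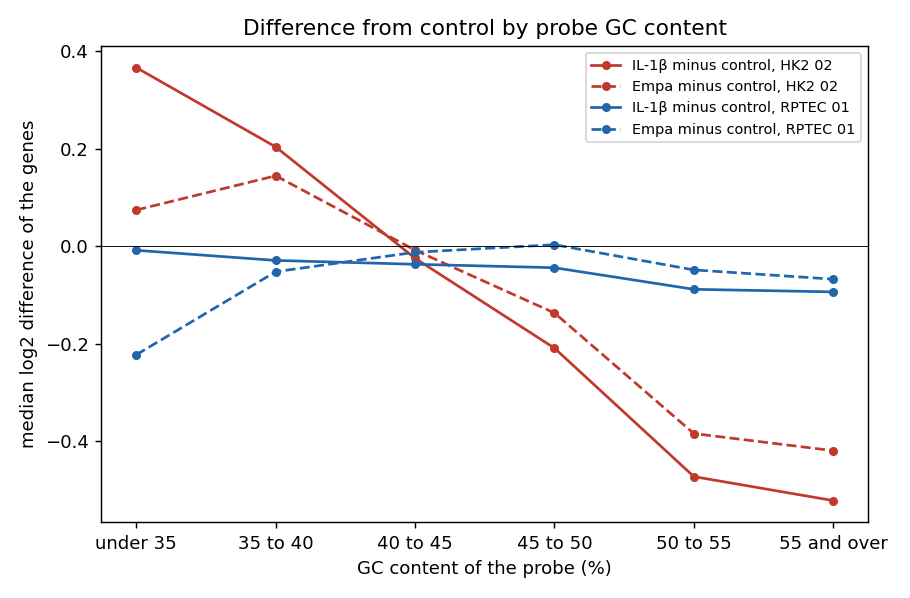
Median log2 difference from the control array of the same slide (vertical axis) over genes grouped by the GC content of their probe in percent (horizontal axis). On HK2 02 (red) the IL-1β line falls from 0.37 to -0.52 and the Empa line runs beside it, while on RPTEC 01 (blue) the IL-1β line stays between -0.01 and -0.09.

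The slides HK2 01 and RPTEC 02, which carry the same treatments under the same line names, were set beside these values without a test, because the slide pairs were formed by their likeness. On them CCL20 differed by 14.01 and 14.05, CXCL8 by 10.20 and 9.89, IL6 by 9.40 and 8.98, LCN2 by 11.81 and 11.11 and NFKBIA by 4.76 and 4.84, all above the values on HK2 02 and RPTEC 01. Differences of 3.20 and 2.95 for NFKB2, 3.71 and 3.37 for RELB, 3.79 and 3.44 for ICAM1 and 4.04 and 4.14 for VCAM1 stood against genes that did not pass on HK2 02 and RPTEC 01. SLC27A2, at -3.81 and -3.87, and LRP2, at -2.38 and -2.02, were lower on all 4 slides. Of the 426 genes that rose 347 were higher on both other slides as well, and of the 667 that fell 506 were lower on both. How many of all genes tested were higher or lower on both other slides was not counted, so these counts are no measure of replication.

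**Figure D5:**
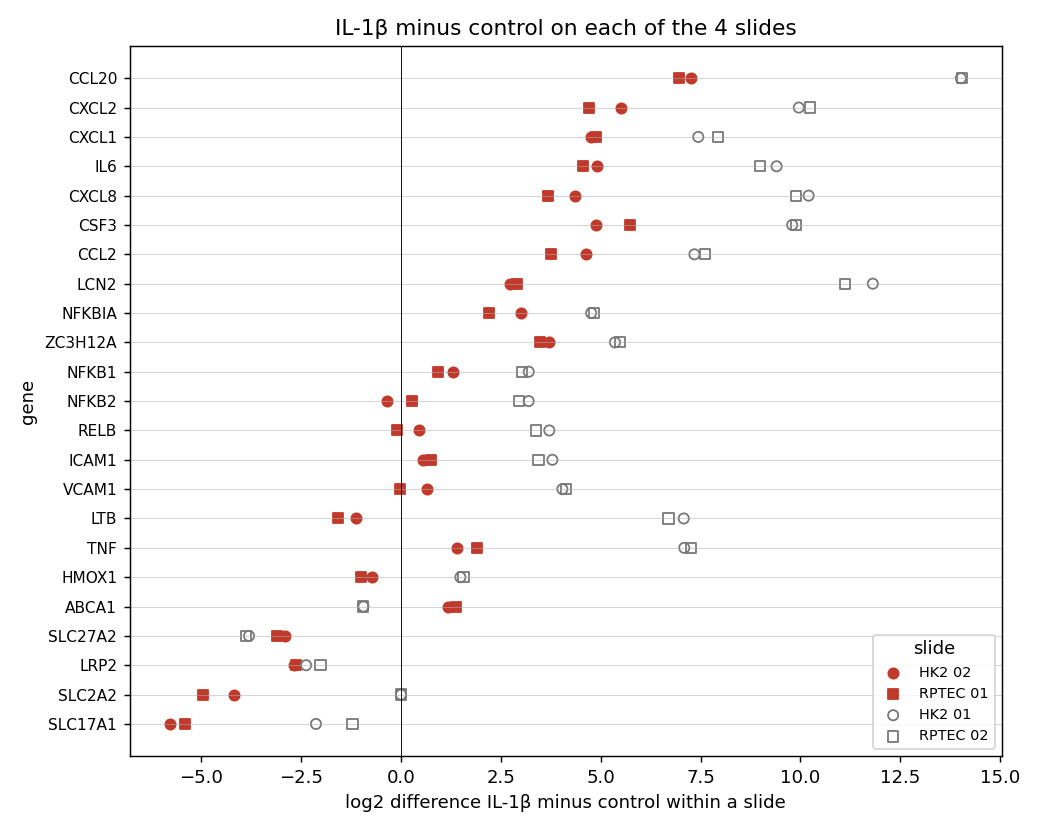
Log2 difference between the IL-1β and the control array within each slide (horizontal axis) for 23 genes, with filled red symbols for HK2 02 and RPTEC 01 and open gray symbols for HK2 01 and RPTEC 02. CCL20 lies near 7 on the first pair and at 14.01 and 14.05 on the second, and LTB and HMOX1 lie on opposite sides of 0.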

How the data were processed

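Expression was measured on 12 one-color Agilent 4x44K v2 arrays, which the sample titles sort by line, treatment and replicate number. The authors ran Agilent Feature Extraction 9.5.3.1 on the scans. The deposited intensities (signal units) had been corrected for background and spatial trend, per the file headers, and carry no normalization between arrays. A table of log2 values, which the authors describe as quantile-normalized, served as an alternative. Positions are on hg19.

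Control and outlier spots were left out and spots of a probe averaged. Signals were scaled to the 75th percentile of each array (common level 388 signal units), raised to at least 1 unit and put on the log2 scale. A value on all arrays was present for 33483 probes. For every gene the brightest probe on the 6 arrays of both slides was used, provided that both arrays of some treatment there were well above background, which gave 15886 genes. The fit used limma 3.58.1 (R 4.3.3) on 12 arrays, with slide as a block and IL-1β and Empa effects of their own for each slide pair, which leaves 4 residual degrees of freedom. p-values were adjusted by Benjamini-Hochberg over all genes, with a threshold of 0.05, and SEs are those of the fit. Arrays were paired by slide and replicate number. Deviations of a slide's control and IL-1β arrays from their title groups' means correlated with r of 0.745 (HK2 02) and 0.810 (RPTEC 01). Slides of the same line name are unlike, which by itself gives such a correlation, so it is no test of the pairing. Slides were put together for their likeness, so the spread may be understated. Where neither array of a treatment was well above background, the fold is a lower bound against, on each array, the higher of the dim probe's level and the lowest level well above background. The number of arrays limits the precision.

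Gene symbols came through accessions for 25767 probes, the array's own name for 5163, the symbol for 2213 and a synonym for 340. Named were the 15 largest rises and falls past the threshold, up to 4 members with the largest difference in each of 30 gene lists, and the study's cluster genes, 144 genes in all. Other list members and MIR146A were named after their values were seen. Some list members are not reported here. Members and lists were chosen with earlier results of these data known. Promoters are those of RefSeq, GRCh38.p14. The 18 alternative settings covered normalization, background correction (normexp, offset 50), filters, the floor, the arrays fitted, a GC correction (loess, span 0.5), each array left out and the t-test for unpaired samples, which the study used for PCR and ELISA. The procedure was tested on simulated data.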

Additional observations from a re-analysis of the deposited data

Results flagged for a closer look

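Named genes past the threshold on HK2 02 and RPTEC 01 whose IL-1β minus control difference ran the opposite way on both HK2 01 and RPTEC 02 are given as means over each slide pair on the log2 scale, and none of these differences was tested. LTB differed by 6.89 on HK2 01 and RPTEC 02 against -1.35, HMOX1 by 1.52 against -0.86, TGFB1 by 0.55 against -0.94 and PP12708 by 1.07 against -3.88. ABCA1 differed by -0.94 on HK2 01 and RPTEC 02 against 1.27, and CDK1 by -0.22 against 1.30.

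On the Empa arrays of both slides, which are outside the IL-1β comparison, CCL20 stood above the control arrays by a mean of 1.86 and ITGA1 by 1.60. Both differences share the control arrays with the IL-1β comparison.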

How the results depend on the processing

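The count of genes past the threshold (1093, of them 426 higher and 667 lower) kept within 1.5 times under quantile normalization, normexp, every probe, both filters, kept outliers, a floor of 5 units and the GC correction with the slide block, apart from 813 genes higher under normexp. Without the slide as replicate block 738 genes passed, 440 of them lower, and 729 were among the 1093. The authors' table gave 1874 (835 higher, 1039 lower), the 4 arrays alone 2266 (887 and 1379), the 6 arrays of both slides 2328 (869 and 1459), and the spread over all 4 slides 202 (77 and 125). Leaving out each array in turn gave 172 to 409 genes, 82 to 230 higher and 90 to 179 lower. The methods' t-test called 0 genes after Benjamini-Hochberg and 1962 at an unadjusted p under 0.05. Of the 96 named genes past the threshold, 82 kept their call without the block, 29 with the spread over all 4 slides and 36 without each array in turn. Directions turned for genes that did not pass. Under quantile normalization, normexp and the authors' table IL33 (-0.14) came to 0.120, 0.0322 and 0.0251, NFKB2 (-0.04) to 0.0537, 0.0440 and 0.0224 and RELA (-0.02) to 0.0576, 0.0460 and 0.0312, and NFKB2 came to 0.170 after GC correction. Without 1 array the values ran from -0.307 to 0.0281 for IL33, -0.356 to 0.267 for NFKB2, -0.163 to 0.132 for RELA, -1.10 to 0.413 for TFAP2A, -0.151 to 0.507 for RELB, -0.114 to 0.270 for CX3CL1 and -0.0152 to 0.629 for VCAM1. The cause was not tested. Genes near background have levels that depend on the floor.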
